A study of Mus musculus with 6 samples.

Results

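The genes described here are *Nr1i3*, which encodes the constitutive androstane receptor (CAR), *Rxra*, *Por*, *Cyp2b10*, *Cyp2b9* and *Cyp2b13*. They were taken by symbol from the deposited count files, and all 6 were among the 23282 genes listed there. RNA was sequenced from the liver of 3 *Alb-Cre;Tcf7l2* f/f mice (knockout libraries 7-2, 7-3 and 8-3) and 3 *Tcf7l2* f/f littermates (wild-type libraries 7-2, 8-1 and 8-3). By the labels, all the mice were C57BL/6 and 12 weeks old, and had gone 24 h without food before 24 h of refeeding. By the authors' account, refeeding was on normal chow, and all the mice carried *Tcf7l2* alleles floxed at exon 5. In the knockout mice the albumin promoter, a hepatocyte promoter, drove Cre, so that other liver cells keep the gene. TCF7L2 is a transcription factor through which Wnt signals reach their target genes, and the comparison asks what its loss in hepatocytes changes in refed liver.

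CAR is a nuclear receptor that is abundant in hepatocytes. Signalling through the epidermal growth factor receptor helps to hold it in the cytoplasm, and drugs and other foreign chemicals release it. In the nucleus it binds DNA together with the retinoid X receptor, for which *Rxra* encodes the main form in liver. CAR then switches on genes that oxidise, conjugate and export its activators. *Cyp2b10* is its classic target in mouse liver, where it is barely expressed until CAR is active, and *Cyp2b9* and *Cyp2b13* are close relatives that are known as female-biased in adult mice. *Por* encodes the cytochrome P450 reductase, which passes electrons from NADPH to all microsomal P450 enzymes and is itself a CAR target.

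Total counts were 60619938 to 68760956 in knockout libraries and 67299258 to 133384586 in wild-type libraries. Genes named *Mup*, which encode the major urinary proteins, took 18.5% to 28.7% of the knockout counts and 31.7% to 54.3% of the wild-type counts. Values are given as CPM, counts scaled for depth with library sizes adjusted by the trimmed mean of M values (TMM), and the log2 fold changes of all genes had a median of −0.017, or of 0.61 with library sizes alone. *Tcf7l2* itself, counted over the whole gene and not over the floxed exon, was lower in each knockout library than in each wild-type library (log2 fold change −0.93 ± 0.19 SE and adjusted *p*=0.0856 by the quasi-likelihood test of edgeR). The defining hepatocyte genes were abundant in every library, with summed levels of 55617 to 78678 CPM in knockout livers and 62615 to 69021 CPM in wild-type livers. Summed markers of sinusoidal endothelium stood at 92.3 to 100.4 CPM in knockout livers and 76.6 to 81.7 CPM in wild-type livers. Stellate cell markers stood at 77.2 to 86.1 CPM in knockout and 53.2 to 66.8 CPM in wild-type livers, and Kupffer cell markers at 51.4 to 60.2 CPM in knockout and 61.9 to 78.0 CPM in wild-type livers. In these 3 marker lists edgeR called 0 of 27 genes, DESeq2 called 2 higher and 0 lower, and each gene had counts. At an unadjusted *p* under 0.05 in edgeR, 2 endothelial and 3 stellate genes were higher and 2 Kupffer genes lower, against 6.70% higher and 6.76% lower among all tested genes, and their part in the results below was not tested. Transcripts of the Y chromosome were present in all 6 libraries, and *Xist* had 4 to 19 counts.

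*Cyp2b10* was the only one of the 6 genes that passed the test, and it was higher in knockout liver. The knockout libraries 7-2, 7-3 and 8-3 held 81, 96 and 296 counts of it, and the wild-type libraries 7-2, 8-1 and 8-3 held 9, 3 and 11. These are 0.956, 1.26 and 3.44 CPM in the knockout livers, against 0.135, 0.0358 and 0.162 CPM in the wild-type livers. Exact Poisson intervals of 95% for these values ran from 0.760 to 3.85 CPM over the knockout libraries and from 0.0074 to 0.289 CPM over the wild-type libraries. The groups did not overlap, and the lowest knockout liver stood 5.92-fold above the highest wild-type liver. Knockout library 8-3 was the highest of its group, at 3.09 times the mean of the other knockout libraries.

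The mean was 1.89 ± 1.35 CPM in knockout livers and 0.111 ± 0.0664 CPM in wild-type livers (SD, *n*=3 each), a ratio of 17.0. Summed over each group, 473 knockout counts against 23 wild-type counts gave a ratio of 18.2, with a 95% interval of 12.0 to 29.0 that covers counting error only. On the log2 scale *Cyp2b10* rose by 4.11 ± 0.64 SE (edgeR, adjusted *p*=0.0303 over 14076 genes, and DESeq2, adjusted *p*=4.24e-10). By edgeR, 10 genes were called higher at an adjusted *p* under 0.05 (0.0710% of those tested) and 53 lower (0.377%). By DESeq2 the shares were 1.42% higher and 1.71% lower. *Cyp2b10* had the 10th largest log2 fold change and the 41st smallest *p*. Groups that did not overlap, with every knockout library above every wild-type library, were found for 10.2% of all tested genes, and the opposite order for 9.08%. For *Cyp2b10* a two-sided exact permutation test had *p*=0.1, which with 3 mice a group is the lowest possible value.

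The wild-type counts of *Cyp2b10* were few, and its call was not kept in every fit with 1 library left out. It was lost when knockout library 8-3 was left out (edgeR log2 fold change 3.33 with adjusted *p*=0.0913), and likewise without wild-type library 7-2 (4.31, adjusted *p*=0.0559), 8-1 (3.66, adjusted *p*=0.0997) or 8-3 (4.50, adjusted *p*=0.0930). Without knockout library 7-2 or 7-3 it was kept. Each of these fits also had fewer mice, and the part of that in the lost calls was not tested. The log2 fold change stayed between 3.33 and 4.71 in all 16 alternatives in which the gene was tested, and 6 of them put its adjusted *p* above 0.05. In whole liver, more hepatocytes that express a gene and more of its RNA in each hepatocyte cannot be told apart.

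**Figure D1:**
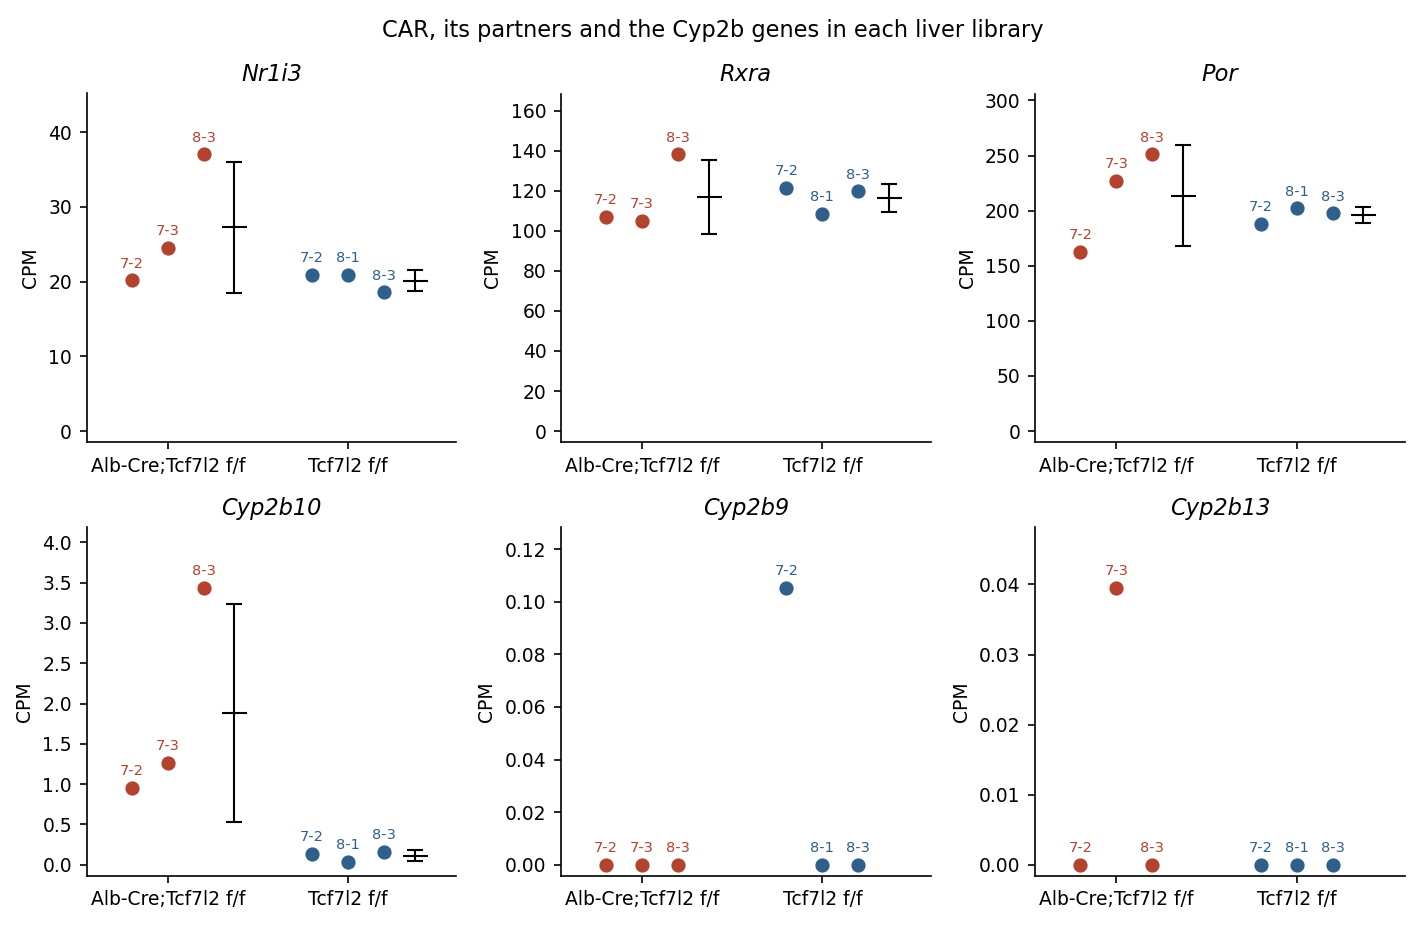
CPM (counts scaled to TMM-adjusted library sizes) of the 6 genes in each library, with *Alb-Cre;Tcf7l2* f/f libraries left and *Tcf7l2* f/f libraries right, each point labelled with its library number. Bars give the mean ± SD of 3 libraries for the 4 tested genes, and only *Cyp2b10* has groups that do not overlap, with 0.956 to 3.44 CPM in knockout and 0.0358 to 0.162 CPM in wild-type livers.

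**Figure D2:**
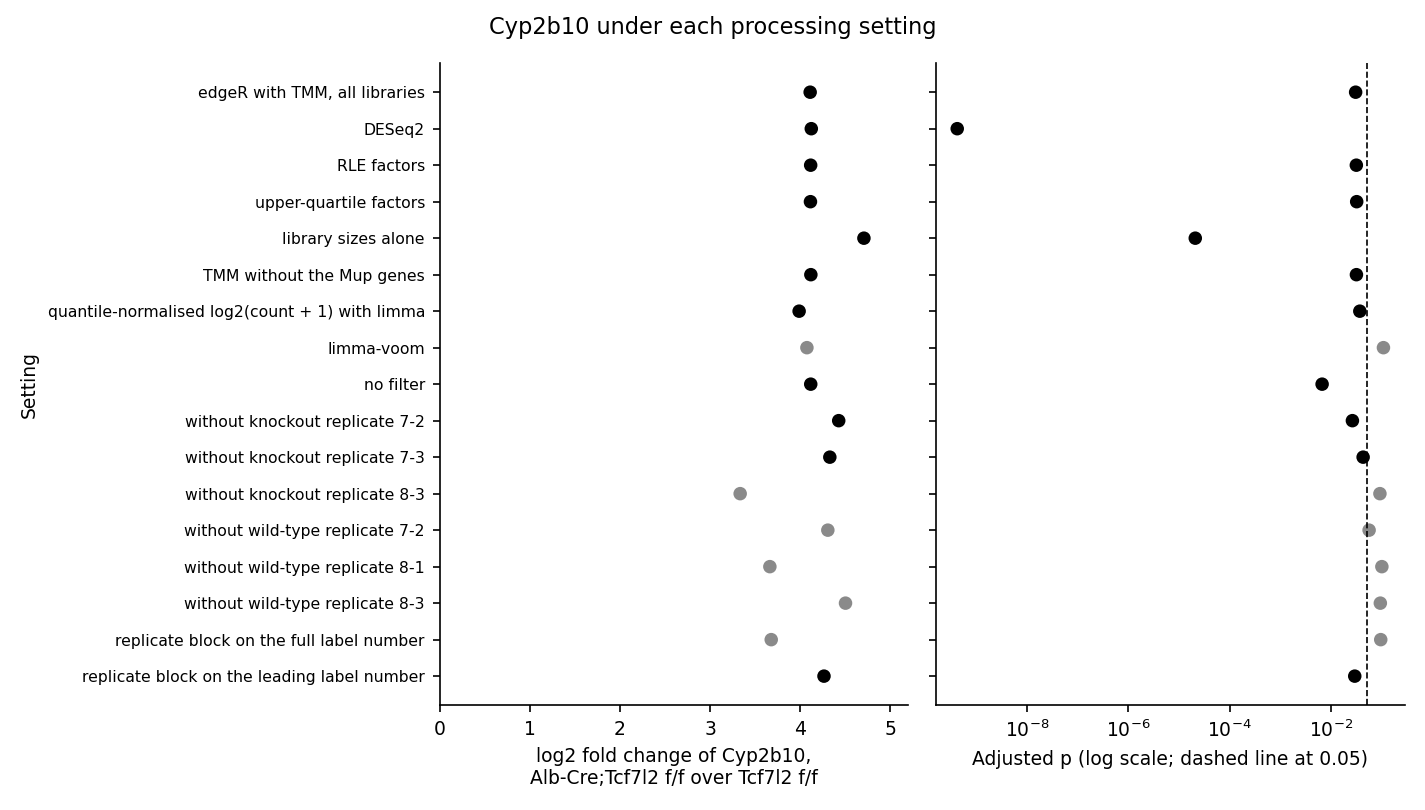
Log2 fold change of *Cyp2b10* (left panel) and its adjusted *p* (right panel, log scale, dashed line at 0.05) with all libraries and under 16 other settings. Black points lie under 0.05 and grey points above it, and the log2 fold change runs from 3.33 to 4.71 while the adjusted *p* reaches 0.107.

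The relatives of *Cyp2b10* were close to absent in both genotypes. *Cyp2b9* had 0 counts in each knockout library and 7, 0 and 0 counts in wild-type libraries 7-2, 8-1 and 8-3. *Cyp2b13* had 0, 3 and 0 counts in knockout libraries 7-2, 7-3 and 8-3 and none in the wild-type libraries. A count of 0 allows up to 3 counts, which is 0.0348 to 0.0395 CPM in knockout libraries and 0.0358 to 0.0451 CPM in wild-type libraries. Both genes fell below the filter on low counts and were not tested, and no difference between the genotypes was detectable at this depth. Of the other relatives, *Cyp2b23* had 2 counts and *Cyp2b19* had 1 count, all in knockout library 8-3. *Cyp2b10* therefore held 81 of 81, 96 of 99 and 296 of 299 counts of the Cyp2b family in knockout libraries 7-2, 7-3 and 8-3, and 9 of 16, 3 of 3 and 11 of 11 in wild-type libraries 7-2, 8-1 and 8-3. The share in wild-type library 7-2 was 56.2% (exact binomial 95% interval 29.9% to 80.2%), and the lowest share among knockout libraries was 97.0% in 7-3 (91.4% to 99.4%).

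The 3 genes lie in the same orientation within the Cyp2 cluster of chromosome 7, *Cyp2b10* from 25897658 to 25926624, *Cyp2b13* from 26061388 to 26096197 and *Cyp2b9* from 26173350 to 26210661 (GRCm38.p6, the patched form of mm10). Reads that align in several places were counted, so near-identical stretches can share reads. In the canonical GENCODE transcripts, *Cyp2b10* was 84.4% identical to *Cyp2b9* and 83.9% to *Cyp2b13*. Of the 50-base words of the *Cyp2b10* transcript, 0.54% also occurred in *Cyp2b9* and 7.82% in *Cyp2b13*. A few counts of one relative could therefore come from another, but most of the *Cyp2b10* transcript is distinct from both at that length.

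The sequences just upstream are shown because *Cyp2b10* was called and its relatives had almost no counts. Each is the plus strand of the 250 bases before the start site that the RefSeq promoter table uses on GRCm38.p6. That site is the first base of the span given above for *Cyp2b10*, but lies 59 bases inside the span of *Cyp2b9* and 107 bases inside that of *Cyp2b13*. Capitals mark the word CATAAAA, which resembles a core promoter box, in *Cyp2b10*, and AGGTCA, the half-site that nuclear receptors bind, in *Cyp2b9* and *Cyp2b13*.
Cyp2b10, chr7:25897408-25897657: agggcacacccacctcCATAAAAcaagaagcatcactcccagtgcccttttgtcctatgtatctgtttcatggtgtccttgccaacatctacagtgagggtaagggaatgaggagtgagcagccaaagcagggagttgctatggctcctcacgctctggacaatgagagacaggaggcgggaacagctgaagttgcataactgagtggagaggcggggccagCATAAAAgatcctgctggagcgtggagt
Cyp2b9, chr7:26173159-26173408: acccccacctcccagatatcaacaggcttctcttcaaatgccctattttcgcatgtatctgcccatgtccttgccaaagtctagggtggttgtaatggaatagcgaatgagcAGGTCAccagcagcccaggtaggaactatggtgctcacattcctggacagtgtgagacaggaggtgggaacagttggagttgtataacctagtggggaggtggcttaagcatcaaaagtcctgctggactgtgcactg
Cyp2b13, chr7:26061245-26061494: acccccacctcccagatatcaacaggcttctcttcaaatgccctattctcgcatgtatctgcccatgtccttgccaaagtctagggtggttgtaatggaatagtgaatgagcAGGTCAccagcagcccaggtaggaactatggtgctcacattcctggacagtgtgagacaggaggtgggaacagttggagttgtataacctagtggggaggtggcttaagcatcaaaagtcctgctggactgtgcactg

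The *Cyp2b9* and *Cyp2b13* windows were identical at 248 of 250 bases. Counted from 1 at the 5′ end of the window, they differ by T48C and C104T (the *Cyp2b9* base first). The *Cyp2b10* window was 70.0% identical to each of them. On both strands, CATAAAA occurred 2 times in the *Cyp2b10* window and in 3.77% of all 32851 windows of this length. AGGTCA began 138 bases before that start site of *Cyp2b9* and of *Cyp2b13*, in 1 of the *Rxra* windows, and in 14.0% of all windows, but not in those of *Cyp2b10*, *Nr1i3* or *Por*. DR4, the direct repeat of this half-site that CAR with its partner binds, was searched as its exact consensus and overlaps the half-site search. It occurred in none of the windows of the 6 genes and in 0.02% of all windows. ATCAAAG, the word that TCF/LEF factors bind, was in none of them and in 3.21% of all windows. The enhancer through which CAR is known to act on *Cyp2b10* lies farther upstream than these windows reach.

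**Figure D3:**
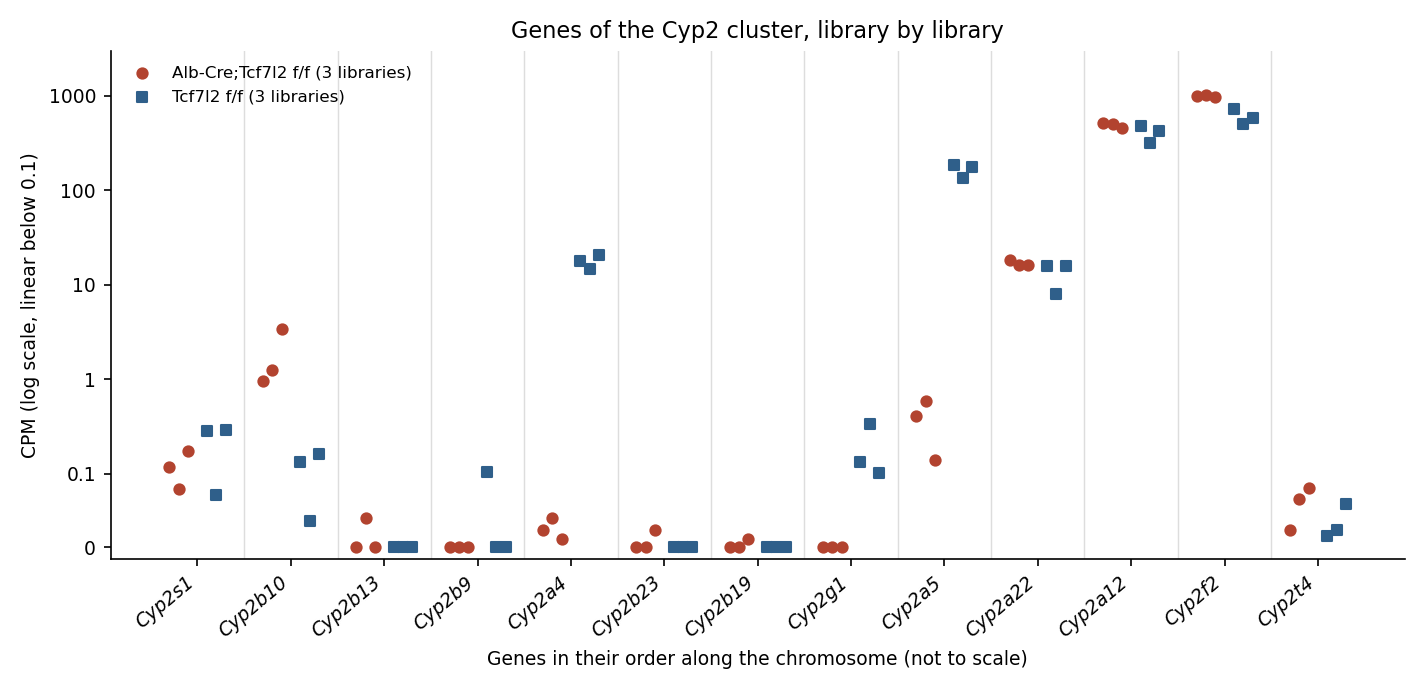
CPM of the genes of the Cyp2 cluster in their chromosomal order, with the 3 *Alb-Cre;Tcf7l2* f/f libraries of each gene left (circles) and the 3 *Tcf7l2* f/f libraries right (squares), on a scale that is logarithmic above 0.1 and linear below. *Cyp2b10* is higher in knockout livers, *Cyp2a4* and *Cyp2a5* are lower, and *Cyp2b9*, *Cyp2b13*, *Cyp2b19* and *Cyp2b23* lie at or near 0 in both groups.

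Elsewhere in the cluster, *Cyp2a4* and *Cyp2a5* were lower in knockout liver. *Cyp2a5*, the coumarin hydroxylase, had 0.413, 0.593 and 0.139 CPM in knockout libraries 7-2, 7-3 and 8-3, against 185, 136 and 179 CPM in wild-type libraries 7-2, 8-1 and 8-3 (edgeR log2 fold change −8.77 ± 0.46 SE with adjusted *p*=2.75e-05). *Cyp2a4*, its close relative, fell to 2, 3 and 1 counts in knockout libraries, against 1201, 1227 and 1406 in wild-type libraries (edgeR log2 fold change −9.42 ± 0.32 SE with adjusted *p*=9.51e-07). The near-identical pair can share reads. *Cyp2f2*, a periportal P450, had 996, 1032 and 980 CPM in knockout libraries and 724, 502 and 579 CPM in wild-type libraries, without overlap, but missed the threshold (log2 fold change 0.74, adjusted *p*=0.162 from edgeR and 0.00377 from DESeq2). *Cyp2a22* (0.35), *Cyp2a12* (0.27) and *Cyp2s1* (−0.78) also missed it by edgeR on the log2 scale. *Cyp2g1* had 0 counts in each knockout library and 9, 28 and 7 in wild-type libraries 7-2, 8-1 and 8-3, below the filter, as did *Cyp2t4* with 14 knockout and 7 wild-type counts in all. Of the 10 other cluster genes, 6 were tested. Of these edgeR called 0 higher and 2 lower, against 0.0710% and 0.377% of all tested genes. DESeq2 called 1 higher and 2 lower, against 1.42% and 1.71% of all tested genes.

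*Nr1i3*, which encodes CAR itself (chromosome 1, 171213934 to 171218845), was higher in some knockout livers but did not pass the test. It stood at 20.2, 24.5 and 37.0 CPM in knockout libraries 7-2, 7-3 and 8-3, against 20.9, 20.9 and 18.6 CPM in wild-type libraries 7-2, 8-1 and 8-3. Knockout library 7-2 lay within the wild-type range and 8-3 far above it, so the groups overlapped. The mean was 27.2 ± 8.73 CPM in knockout livers and 20.1 ± 1.35 CPM in wild-type livers (SD, *n*=3 each). The difference of *Nr1i3* was 0.44 ± 0.21 SE on the log2 scale (adjusted *p*=0.408 in edgeR and 0.373 in DESeq2), and 0.15 without knockout library 8-3 (adjusted *p*=0.845). With library sizes alone it was 1.05 (adjusted *p*=0.0244 from edgeR), on a scale where all genes centre on 0.61.

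*Rxra*, the DNA-binding partner (chromosome 2, 27676445 to 27763319), had 107, 105 and 138 CPM in knockout libraries 7-2, 7-3 and 8-3, against 121, 108 and 120 CPM in wild-type libraries 7-2, 8-1 and 8-3. The knockout values lay on both sides of the wild-type range. The mean was 116.7 ± 18.6 CPM in knockout livers and 116.5 ± 7.02 CPM in wild-type livers (SD, *n*=3 each), and the log2 difference was 0.0029 ± 0.17 SE (edgeR, adjusted *p*=0.995).

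*Por*, the reductase (chromosome 5, 135670040 to 135735326), had 163, 227 and 251 CPM in knockout libraries 7-2, 7-3 and 8-3, against 188, 202 and 198 CPM in wild-type libraries 7-2, 8-1 and 8-3. Here too the knockout livers spread wider than the wild-type livers, with 7-2 below and the other knockout libraries above all wild-type values. The mean was 213.6 ± 45.8 CPM in knockout livers and 195.9 ± 7.26 CPM in wild-type livers (SD, *n*=3 each), and the log2 difference was 0.12 ± 0.19 SE (edgeR, adjusted *p*=0.811). Exact two-sided permutation tests gave *p*=0.3 for *Nr1i3*, 0.9 for *Rxra* and 0.7 for *Por*.

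All 4 tested genes had their highest knockout value in library 8-3, which was the highest knockout library for 29.7% of all tested genes. For *Nr1i3* it stood at 1.66 times the mean of the other knockout libraries, for *Rxra* at 1.30 and for *Por* at 1.29 times. *Cyp3a44* and *Cyp3a41a*, which are female-biased in mouse liver, were also highest there, while *Cyp3a16*, a female-biased gene of the same family, was highest in knockout library 7-3 (9.47 CPM, and 5.82 CPM in 8-3). *Cyp3a44*, a P450 of the Cyp3a family, had 154, 106 and 779 CPM in knockout libraries 7-2, 7-3 and 8-3, against 3.37, 19.6 and 8.72 CPM in wild-type libraries 7-2, 8-1 and 8-3. It passed the edgeR test narrowly (log2 fold change 5.03, SE 0.88, adjusted *p*=0.0496), and the call was lost in 5 of 6 fits with 1 library left out (adjusted *p*=0.0349 to 0.205). *Cyp3a41a*, of the same family, had 174, 133 and 1244 CPM in knockout libraries, against 7.01, 35.2 and 16.3 CPM in wild-type libraries (edgeR log2 fold change 4.73 with adjusted *p*=0.0856).

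Per kilobase of the canonical transcript, the order of the 4 tested genes was the same in both genotypes. *Por* was first with 81.0 ± 17.4 CPM per kilobase in knockout livers and 74.3 ± 2.75 in wild-type livers (SD, *n*=3 each). *Rxra* came next with 21.3 ± 3.39 CPM per kilobase in knockout and 21.3 ± 1.28 in wild-type livers. *Nr1i3* followed with 18.1 ± 5.80 CPM per kilobase in knockout and 13.4 ± 0.900 in wild-type livers. *Rxra* and *Nr1i3* overlapped in knockout livers (19.2 to 25.2 against 13.4 to 24.6 CPM per kilobase) and were apart in wild-type livers (19.8 to 22.2 against 12.3 to 13.9). *Cyp2b10* was far below with 0.984 ± 0.705 CPM per kilobase in knockout and 0.0579 ± 0.0346 in wild-type livers, and *Cyp2b9* and *Cyp2b13* lay below it in every library. In wild-type library 7-2, *Cyp2b9* (0.0561 CPM per kilobase) and *Cyp2b10* (0.0707) were within each other's counting error.

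Over the 6 libraries, the log2 CPM of *Cyp2b10* was most like that of *Mfsd2a* (Pearson *r*=0.995), *Sacm1l* (0.991) and *Abat* (0.989), among genes with a mean log2 CPM above 1. *Mfsd2a*, a transporter of lysophospholipids, had 15.7, 15.04 and 23.6 CPM in knockout libraries 7-2, 7-3 and 8-3, against 8.58, 5.88 and 8.99 CPM in wild-type libraries 7-2, 8-1 and 8-3. *Nr1i3* was most like *Zeb1* (*r*=0.979), *Mtmr6* (0.974) and *Prpf38b* (0.973). *Rxra* was most like *Taf3* (0.987), *Flywch1* (0.967) and *Eif2ak3* (0.958), and *Por* was most like *Arih2* (0.977), *Abcg5* (0.961) and *Vrk1* (0.95). With 6 libraries that share a genotype or a depth, and many genes to choose from, these are descriptions.

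Other CAR target genes moved in both directions. Of 28 such genes 27 were tested, and edgeR called 1 higher and 3 lower (DESeq2 4 and 5). Among all tested genes edgeR called 0.0710% higher and 0.377% lower, and DESeq2 1.42% and 1.71%. Before adjustment 7 of the CAR targets were higher and 5 lower at *p* under 0.05 in edgeR, against 6.70% and 6.76% of all tested genes. The median log2 fold change of the list was −0.058, against −0.017 over all genes. *Slco1a4*, a transporter that takes up organic anions, had 22.3, 20.7 and 29.5 CPM in knockout libraries 7-2, 7-3 and 8-3, against 2.92, 5.63 and 5.17 CPM in wild-type libraries 7-2, 8-1 and 8-3. Its groups were well apart (edgeR log2 fold change 2.40 ± 0.25 SE with adjusted *p*=0.00325), and the call was kept with each library left out. Lower in knockout liver, beside *Cyp2a5*, were *Gstm2* and *Cyp2c37*. *Gstm2*, a glutathione transferase, had 12.1, 16.3 and 9.08 CPM in knockout libraries, against 47.2, 56.7 and 49.2 CPM in wild-type libraries (edgeR log2 fold change −2.03 ± 0.22 SE with adjusted *p*=0.00325). *Cyp2c37*, a P450 that oxidises arachidonic acid, had 68.5, 71.8 and 45.0 CPM in knockout libraries, against 201, 132 and 143 CPM in wild-type libraries (edgeR log2 fold change −1.36 ± 0.23 SE with adjusted *p*=0.0418). The call of *Cyp2c37* was lost in each of the 6 fits with 1 library left out (adjusted *p*=0.0584 to 0.134).

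A further 5 of these genes were called by DESeq2 alone, and they too split by direction. The carboxylesterase *Ces2a* (log2 fold change 0.56), *Cyp3a11* (0.89), the main drug-oxidising Cyp3a enzyme, and *Cyp2c29* (0.89) lay above 0, with adjusted *p*=0.167, 0.180 and 0.266 from edgeR. *Gstm3* (−0.86), a glutathione transferase, and *Cyp1a2* (−0.995), a P450 of pericentral hepatocytes, lay below 0, with adjusted *p*=0.137 and 0.209 from edgeR. A list of 12 pericentral genes shares *Cyp1a2* with the CAR targets. In that list edgeR called 9 lower and 0 higher (median log2 fold change −2.23), against 0.377% and 0.0710% of all tested genes. *Glul*, *Oat*, *Slc1a2* and *Notum* were among them, and *Glul*, glutamine synthetase, had 47.1 to 55.1 CPM in knockout livers and 241 to 343 CPM in wild-type livers. The part of these pericentral genes in the values of the CAR targets was not tested.

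**Figure D4:**
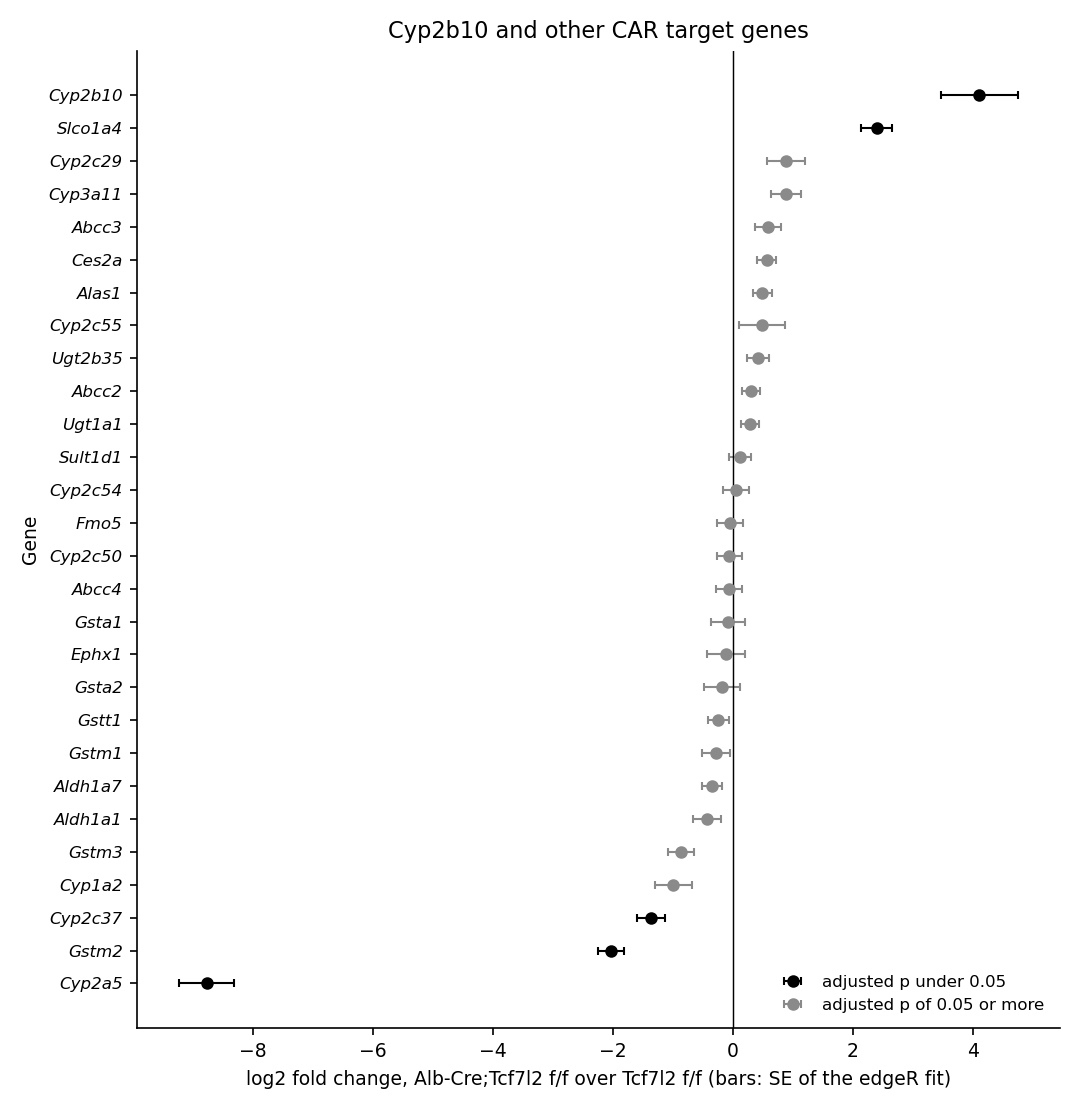
Log2 fold change of *Alb-Cre;Tcf7l2* f/f over *Tcf7l2* f/f livers for *Cyp2b10* and the 27 other tested CAR target genes, with bars for the SE derived from the edgeR test. *Cyp2b10* (4.11) and *Slco1a4* (2.40) are the called genes above 0, *Cyp2c37* (−1.36), *Gstm2* (−2.03) and *Cyp2a5* (−8.77) those below, and grey points missed the threshold of 0.05.

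Of the genes for proteins that hold CAR back or help it act, 0 of 16 were called by edgeR in either direction, with a median log2 fold change of 0.017. Before adjustment 1 was higher and 1 lower at *p* under 0.05 in edgeR, against 6.70% and 6.76% of all tested genes, and DESeq2 called 0 and 1. *Nr0b2*, which encodes the small heterodimer partner, a corepressor of CAR, had 8.96, 6.32 and 7.48 CPM in knockout libraries 7-2, 7-3 and 8-3, against 10.5, 12.2 and 13.2 CPM in wild-type libraries 7-2, 8-1 and 8-3. Its groups did not overlap, but it missed the threshold (log2 fold change −0.66 ± 0.17 SE, with adjusted *p*=0.158 in edgeR and 0.0376 in DESeq2). The coactivators *Ncoa1* (0.45, adjusted *p*=0.228) and *Ncoa3* (0.37, adjusted *p*=0.446) lay above 0 on the log2 scale by edgeR.

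Of 12 tested receptors of the retinoid X group and its other partners, edgeR called 0 higher and 1 lower, against 0.0710% and 0.377% of all tested genes. Before adjustment 0 were higher and 1 lower at *p* under 0.05 in edgeR, against 6.70% and 6.76%, and DESeq2 called 0 and 1. The gene called lower was *Pparg*, the receptor that drives lipid storage, with 0.130, 0.606 and 0.128 CPM in knockout libraries 7-2, 7-3 and 8-3, against 2.30, 2.51 and 2.84 CPM in wild-type libraries 7-2, 8-1 and 8-3. On the log2 scale it was at −3.16 ± 0.53 SE (edgeR, adjusted *p*=0.0403), and the call was lost in 5 of 6 fits with 1 library left out, all but that without knockout library 7-3. The thyroid hormone receptor *Thrb* (0.31, adjusted *p*=0.414), the liver X receptor *Nr1h3* (−0.39, adjusted *p*=0.438) and the bile acid receptor *Nr1h4* (0.28, adjusted *p*=0.480) missed the threshold by edgeR on the log2 scale.

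Genes that serve P450 enzymes beside *Por* were not called by edgeR. Of 7 electron donors and their partners, 0 passed in either direction (before adjustment 1 higher and 0 lower, and by DESeq2 none). *Pgrmc2*, a haem-binding membrane protein, was the nearest (log2 fold change 0.48, adjusted *p*=0.305), followed by *Cyb5a* (−0.26), *Fdx1* (0.20) and *Cyb5b* (0.15), carriers of electrons. Of 10 genes of haem synthesis and breakdown 0 were called by edgeR (before adjustment 1 higher and 2 lower, and by DESeq2 0 and 1). Among all tested genes 6.70% were higher and 6.76% lower before adjustment in edgeR. *Blvrb*, biliverdin reductase B, had 26.8, 22.5 and 19.2 CPM in knockout libraries and 72.5, 37.1 and 52.6 CPM in wild-type libraries, without overlap (edgeR log2 fold change −1.24 with adjusted *p*=0.0762). *Alas1*, the first enzyme of haem synthesis and itself a CAR target, had 282, 230 and 227 CPM in knockout libraries and 173, 174 and 178 CPM in wild-type libraries (edgeR log2 fold change 0.49 with adjusted *p*=0.244). *Alad* (−0.51) and *Fech* (0.31), further enzymes of that pathway, also missed the threshold.

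Genes that active CAR is known to repress in mouse liver gave no call. Of 6 such genes, most of which serve bile acid synthesis, gluconeogenesis or fatty acid oxidation, 0 were called by edgeR or DESeq2 in either direction. Before adjustment 2 were higher and 0 lower in edgeR, against 6.70% and 6.76% of all tested genes. The median log2 fold change of the list was 0.32. *Cyp8b1*, the sterol 12-alpha-hydroxylase, had 68.7, 42.7 and 55.3 CPM in knockout libraries and 43.0, 25.2 and 31.1 CPM in wild-type libraries (edgeR log2 fold change 0.75 with adjusted *p*=0.213). *Cpt1a*, which brings fatty acids into mitochondria, was at 0.45 (adjusted *p*=0.349), *Cyp7a1*, the rate-limiting enzyme of bile acid synthesis, at 0.32 (adjusted *p*=0.576) and the liver factor *Foxa2* at 0.17 (adjusted *p*=0.766) on the log2 scale by edgeR.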

How the data were processed

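Liver RNA of 3 *Alb-Cre;Tcf7l2* f/f mice and 3 *Tcf7l2* f/f littermates was sequenced from directional libraries. The deposited values are raw gene counts, which the authors made with Bedtools from unique and multiple alignments. The submitters' processing notes name TopHat and mm10, while the annotation and the version of the aligner were not given in the sources used here. These counts precede the authors' quantile normalisation. Each library was taken as 1 mouse. No 2 libraries were copies (smallest chi-square per degree of freedom 188).

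Genotypes were compared by the quasi-likelihood test of edgeR 4.0.16 (with limma 3.58.1 in R 4.3.3) with TMM factors and filterByExpr defaults (count minimum 10, total 15), which kept 14076 of 23282 genes and 4 of the 6 described. Adjusted *p* values are Benjamini-Hochberg values over all tested genes, called under 0.05. Each SE was derived from the edgeR test, as the absolute log2 fold change divided by the square root of the F statistic. Exact permutation tests used log2(CPM + 0.125). Libraries held 60619938 to 133384586 counts, and the biological coefficient of variation was 23.9%. Reads carry no molecular identifiers, so intervals and floors of 3 counts cover counting error only.

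The genes and the gene lists were chosen with earlier results of these data known. Named genes were the 6, up to 4 of each list with the smallest *p*, called list genes, the Cyp2 cluster and the 3 genes most alike to each tested gene. *Ces2a*, *Cyp3a11*, *Cyp2c29*, *Gstm3* and *Cyp1a2* were added after their values were seen. A further gene that the rule names is not reported here. As alternatives, each library was left out in turn, and replicate blocks, limma-voom and DESeq2 1.42.0 were fitted. Scaling was changed to upper-quartile or RLE factors, to library sizes alone, to TMM without *Mup* genes and to quantiles (limma on log2 values). The filter was dropped, or set to a mean log2 count of 5. Sequences came from RefSeq tables (GRCm38.p6), which hold all 6 genes. Transcript lengths and identities (Biopython 1.88) came from GENCODE transcripts of GRCm39.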

Additional observations from a re-analysis of the deposited data

How the results depend on the processing

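*Cyp2b10* lay above 0 in all 16 alternatives that tested it, and its adjusted *p* ran from 4.24e-10 to 0.107. It passed the threshold in 10 of them. Its log2 fold change with limma-voom was 4.07 (adjusted *p*=0.107), and 3.68 with a replicate block on the full label number (adjusted *p*=0.0947). With 1 library left out it ran from 3.33 to 4.50. A minimum mean log2 count of 5 removed the gene, so no value could be had. The number of the 6 genes called was 1 with all libraries, 2 with library sizes alone (*Nr1i3* with 1.05), 0 with limma-voom, 0 with that block, and 0 to 1 with 1 library left out. *Nr1i3* otherwise stayed above 0 and uncalled (0.15 to 0.61 with 1 library left out). *Rxra* changed sign with upper-quartile factors (−0.0019) and limma-voom (−0.0089), and ran from −0.14 to 0.073 with 1 library left out. *Por* ran from −0.0085 to 0.29 in those fits. *Rxra* and *Por* were called in none. Genes called higher numbered 10 with all libraries, 200 with DESeq2, 2936 with library sizes alone, 6 with limma-voom, 23 without a filter, and 3 to 18 with 1 library left out. Genes called lower numbered 53, and 240 with DESeq2, 88 with library sizes alone and 21 to 69 with 1 library left out. The genotypes share only the numbers 7-2 and 8-3, and the deviations of same-numbered libraries from their group means correlated with *r*=0.0079 and −0.0069, so the numbers were not taken as pairs. The replicate block on the full number called 15 genes higher and 34 lower, and the block on the leading number 6 and 33. The cause of these shifts was not tested. With 3 to 11 wild-type counts, depth limits the precision of the *Cyp2b10* ratio.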

Other observations

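Further gene lists describe the state of the livers in which *Cyp2b10* was measured. Of 12 clock output factors, which drive daily rhythms of many P450 genes, 0 were called by edgeR in either direction (before adjustment 5 higher and 1 lower at *p* under 0.05, against 6.70% and 6.76% of all tested genes, and by DESeq2 2 and 0). *Per2*, a repressor of the clock, had 17.4, 26.2 and 15.5 CPM in knockout libraries 7-2, 7-3 and 8-3, against 5.39, 10.8 and 7.85 CPM in wild-type libraries 7-2, 8-1 and 8-3 (edgeR log2 fold change 1.30 with adjusted *p*=0.0895). *Cry1* (1.06), *Tef* (0.54) and *Nr1d1* (−0.66) were the next by *p* on the log2 scale. The hours at which single livers were taken were not analysed here.

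Of 12 tested female-biased genes edgeR called 1 higher (*Cyp3a44*) and 1 lower (*Cyp2a4*), and *Cyp3a16* (log2 fold change 1.04, adjusted *p*=0.211) was not called by edgeR. Before adjustment 3 were higher and 3 lower at *p* under 0.05 in edgeR, and DESeq2 called 3 higher and 1 lower. Of 17 male-biased genes edgeR called 0 higher and 1 lower. Before adjustment 2 of them were higher and 7 lower, and DESeq2 called 0 higher and 3 lower. Among all tested genes edgeR called 0.0710% higher and 0.377% lower, and DESeq2 1.42% and 1.71%. Before adjustment these shares were 6.70% and 6.76% in edgeR. *Susd4*, the male-biased gene called by edgeR, had 0.909, 0.395 and 1.10 CPM in knockout libraries and 6.29, 6.98 and 6.14 CPM in wild-type libraries (edgeR log2 fold change −3.002 ± 0.32 SE with adjusted *p*=0.0033). *Mup1* (−2.31), *Hsd3b5* (−0.82) and *Cyp2u1* (0.60) missed the threshold in edgeR. Of 10 genes of growth hormone signalling 0 were called by edgeR or DESeq2, and 0 had an unadjusted *p* under 0.05.

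Acute phase genes were high in some wild-type livers. Their summed level was 12844 to 16784 CPM in knockout libraries, against 15717, 29766 and 34057 CPM in wild-type libraries 7-2, 8-1 and 8-3. *Lcn2*, an iron-binding acute phase protein, had 4.32, 16.0 and 7.49 CPM in knockout libraries and 6.18, 477 and 350 CPM in wild-type libraries (edgeR log2 fold change −4.91 with adjusted *p*=0.132). The part of these genes in the values of *Cyp2b10* was not tested. Of 15 such genes 0 were called by edgeR (before adjustment 0 higher and 14 lower, and by DESeq2 0 and 5). Among all tested genes 6.76% were lower at an unadjusted *p* under 0.05 in edgeR, and DESeq2 called 1.71% lower. Of 8 fasting response genes 0 were called by edgeR (before adjustment 0 higher and 4 lower, and by DESeq2 0 and 1), with *Cyp4a10*, a fatty acid hydroxylase, at a log2 fold change of −1.18 (adjusted *p*=0.159).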
